A study of Homo sapiens with 4 samples.

Results

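The aminoacyl-tRNA synthetases were examined as a set of 38 genes, made up of 19 cytosolic enzymes, 16 mitochondrial enzymes and 3 scaffold proteins of the multisynthetase complex. The set was taken as a list of gene symbols, matched through Entrez identifiers, and not by a cut on measured values. It was chosen with earlier results of these data known. All 38 were found among the 17010 genes of the vector-pair tables and the 16856 genes used from the siRNA-pair tables. The data were 4 RNA-seq libraries, 1 for each group, from cells whose label is HepG2, a human liver tumour line. In the first pair, cells received a plasmid for FLAG-tagged JFK, the older name of the F-box protein FBXO42, or the vector without it. In the second pair, cells received siRNA directed at ING5, a subunit of histone acetyltransferase complexes, or a control siRNA. None of the labels gives the hours after transfection, the plasmid's promoter or the siRNA sequence.

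Aminoacyl-tRNA synthetases join each amino acid to its matching transfer RNAs and so supply the ribosome. Cytosol and mitochondria mostly use enzymes of separate nuclear genes, although KARS1 (lysine) and GARS1 (glycine) serve both compartments. In animals several of the cytosolic enzymes are held with the non-catalytic proteins AIMP1, AIMP2 and EEF1E1 in the multisynthetase complex, and the genes of many cytosolic enzymes are targets of ATF4, the transcription factor of the amino acid response.

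Reads assigned to genes came to 7237320 in the library labelled JFK against 7179580 in vector, and to 9030080 in ING5 siRNA and 9196980 in control siRNA. FBXO42 had 115 counts in the library labelled JFK against 116 in vector, so its transcript was not higher where the label names overexpression. ING5 had 81 counts in ING5 siRNA against 144 in control siRNA (log2 fold -0.81, interval -1.23 to -0.41). Of 10 hepatocyte markers, 2 were measured in each pair, and they were the same 2. VTN, for vitronectin, had 2598 counts in the library labelled JFK against 2156 in vector, and 489 in ING5 siRNA against 376 in control siRNA. HNF4A, which encodes a hepatocyte transcription factor, had 73 counts in the library labelled JFK against 51 in vector, and 91 in ING5 siRNA against 75 in control siRNA. APOA1, APOB, AFP and SERPINA1 had at most 7 counts wherever listed and FGB at most 15, low for the HepG2 label. ALB, TF and TTR were not found among the genes used in either pair. The keratin gene KRT17, which is not a hepatocyte marker, had 27539 counts in the library labelled JFK against 20990 in vector, and 2299 in ING5 siRNA against 2704 in control siRNA. ALPP, from the same list of other carcinoma markers, had 26762.5 counts against 22847, and 10851 against 14635. Of that list KRT5, ESR1 and GATA3 had at most 28 counts wherever listed. Among endothelial markers CDH5 had 1132 counts in the library labelled JFK against 995 in vector, and 87 in ING5 siRNA against 224 in control siRNA, while PECAM1 had at most 43, VWF at most 12 and KDR at most 1. Among leukocyte markers CD68 had 1247 counts in the library labelled JFK against 1183 in vector, and 437 in ING5 siRNA against 550 in control siRNA, LYZ had 72 against 115 and 13 in each siRNA library, and PTPRC had at most 8. The part of these transcripts in the differences described here was not tested. With 1 library per group no difference could be tested or set against replicate spread, and no p-value is given. Intervals are at 95%, come from an exact Clopper-Pearson bound on the count ratio within a pair, and cover counting error only. In bulk RNA, fewer cells that express a gene and less of its RNA per cell cannot be told apart.

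Promoter letters are shown first because the amino acid response is a regulation that many of these genes are known for. RefSeq sequences on GRCh38.p14, reaching 250 bases before the start site and 50 after it, were present for 16 cytosolic, 14 mitochondrial and 3 scaffold genes. The letters TGATGNAA, on either strand, spell the composite element bound by ATF4 with C/EBP partners. They stood in 7 of the 16 cytosolic genes, AARS1, CARS1, GARS1, IARS1, MARS1, NARS1 and TARS1, in YARS2 alone of the 14 mitochondrial genes and in 0 of the 3 scaffold genes. The same letters occurred in 4.46% of the 27305 genes with such a sequence and in 3.62% of the 35116 promoters. In the 250 upstream bases alone the counts were 3 of 16 cytosolic genes and 1 of 14 mitochondrial genes, beside 3.89% of all genes, since the letters in CARS1, MARS1, NARS1 and TARS1 lie across or beside the start site. Each line gives the matching letters in capitals with up to 10 bases on each side, read along the gene's strand.
AARS1, chr16:70289676-70289703, minus strand: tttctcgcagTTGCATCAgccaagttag
CARS1, chr11:3057408-3057435, minus strand: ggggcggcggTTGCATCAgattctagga
GARS1, chr7:30594835-30594862, plus strand: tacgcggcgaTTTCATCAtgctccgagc
IARS1, chr9:92293693-92293720, minus strand: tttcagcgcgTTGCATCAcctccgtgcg
MARS1, chr12:57488054-57488081, plus strand: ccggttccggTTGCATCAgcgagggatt
NARS1, chr18:57621805-57621832, minus strand: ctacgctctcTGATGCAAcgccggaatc
TARS1, chr5:33440957-33440984, plus strand: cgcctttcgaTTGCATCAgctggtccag
YARS2, chr12:32756077-32756104, minus strand: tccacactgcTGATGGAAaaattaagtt

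A match is a description of letters and not a shown binding site. In all, 7 motifs were searched, and those described were chosen after their matches were seen. The other letters were TTCNNNGAA (interferon gamma activated site), TGACGTCA (cyclic AMP response element), CACGTG (E-box) and CCAAT, and the interferon-stimulated response element and the NRF1 site, both searched on either strand. No matches of different motifs overlapped in these genes. The interferon-stimulated letters stood in WARS1 and EARS2, beside 4.38% of all genes. Those of the interferon gamma activated site stood in 5 of 33 genes (CARS1, TARS1, WARS1, PARS2 and WARS2), beside 9.38% of all genes. WARS1, the cytosolic tryptophan enzyme, is the member known to be induced by interferon gamma. The 250 bases before its downstream start site are shown with the interferon-stimulated letters in capitals, 55 bases before that site. The same stretch also holds TTCNNNGAA, left in lower case.
WARS1, chr14:100375348-100375597, minus strand: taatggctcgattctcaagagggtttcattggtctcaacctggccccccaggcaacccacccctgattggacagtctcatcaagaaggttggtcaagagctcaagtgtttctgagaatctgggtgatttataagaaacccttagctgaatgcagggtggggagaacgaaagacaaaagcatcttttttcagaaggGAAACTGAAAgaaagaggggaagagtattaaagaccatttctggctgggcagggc

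FARSA, the catalytic subunit gene of cytosolic phenylalanyl-tRNA synthetase, is shown because it differed most in both pairs. None of the 7 motifs was found in its window, which says only that these letters are not there.
FARSA, chr19:12933712-12933961, minus strand: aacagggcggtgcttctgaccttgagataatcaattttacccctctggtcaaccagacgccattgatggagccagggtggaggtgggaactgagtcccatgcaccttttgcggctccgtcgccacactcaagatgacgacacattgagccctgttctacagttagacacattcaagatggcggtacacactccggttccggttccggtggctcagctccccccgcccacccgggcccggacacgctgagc

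The set was well covered, with 51 to 9419 counts per member and library, and all 38 members passed the minimum mean normalised count of 20 in both pairs. The 38 genes together took 0.448% of reads in the library labelled JFK against 0.483% in vector, and 0.546% in ING5 siRNA and 0.568% in control siRNA. Cytosolic enzymes took most of this, with 0.352% of reads in the library labelled JFK against 0.387% in vector, and 0.455% in ING5 siRNA against 0.473% in control siRNA. Mitochondrial enzymes took 0.0773% in the library labelled JFK against 0.0767% in vector, and 0.0744% in ING5 siRNA against 0.0789% in control siRNA. In percentage points, the lower share of the set in each treated library lay mainly in the cytosolic enzymes, which hold most of its reads. In the vector pair much of that came from WARS1 (4375 counts in the library labelled JFK against 5498 in vector) and FARSA (932 against 1476). Under ING5 siRNA the median log2 fold was lower for mitochondrial enzymes (-0.09) than for cytosolic ones (-0.03).

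Per gene length, transcripts of cytosolic enzymes stood higher than those of mitochondrial enzymes in every library. The median cytosolic level was 43.1 FPKM in the library labelled JFK against 46.9 FPKM in vector, and 64.6 RPKM in ING5 siRNA and 69.6 RPKM in control siRNA. The median mitochondrial level was 15.96 FPKM in the library labelled JFK against 16.2 FPKM in vector, and 11.5 RPKM in ING5 siRNA and 13.8 RPKM in control siRNA. The ratio of the class medians was 2.70 in the library labelled JFK against 2.90 in vector, and 5.61 in ING5 siRNA and 5.06 in control siRNA. The ratio was higher in both siRNA libraries than in both plasmid libraries, but the 2 pairs of tables were normalised separately and differ in unit. The cytosolic median lay at percentile 87.5 to 93.6 of the genes with reads over the 4 libraries, and the mitochondrial median at percentile 65.4 to 70.0.

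**Figure D1:**
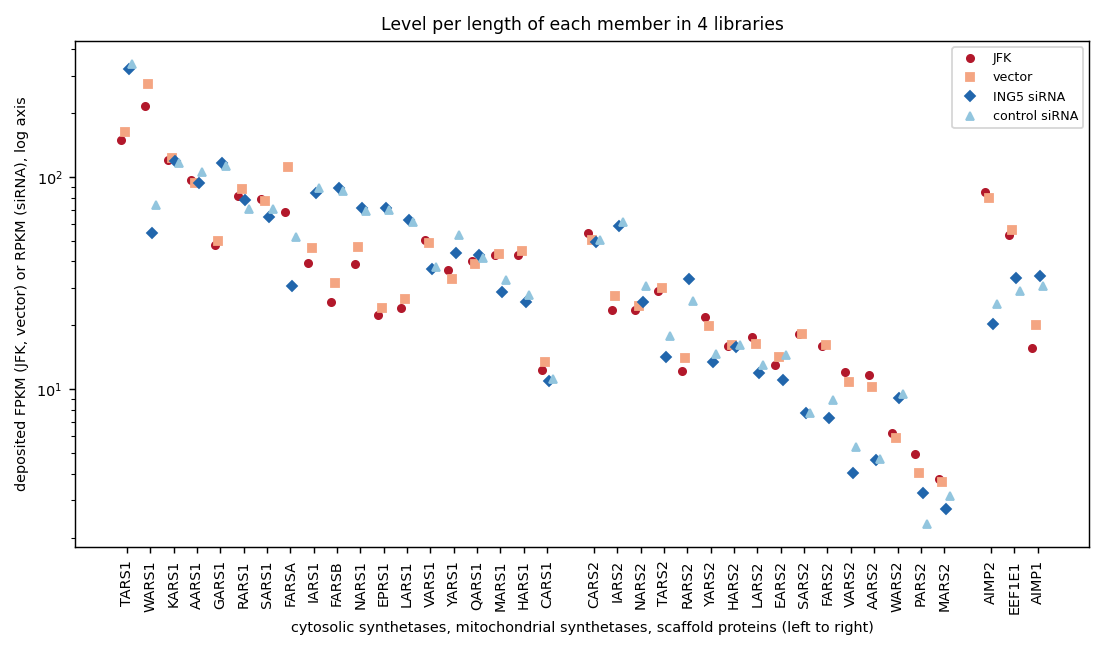
Deposited level per length (log axis; FPKM for JFK and vector, RPKM for the siRNA libraries) of the 38 members, ordered by mean level within cytosolic enzymes, mitochondrial enzymes and scaffold proteins; each mark is 1 library. TARS1 and WARS1 lead the cytosolic enzymes, CARS1 is the lowest of them, and MARS2 is the lowest mitochondrial enzyme by mean.

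TARS1 (threonine) and WARS1 (tryptophan) held the highest levels of the set, but in different libraries. TARS1 had 149 and 163 FPKM in the library labelled JFK and vector, and 321 and 342 RPKM in ING5 siRNA and control siRNA. WARS1 had 215 and 275 FPKM in the library labelled JFK and vector, and 54.4 and 74.0 RPKM in ING5 siRNA and control siRNA. WARS1 was therefore the highest member in the plasmid libraries and TARS1 in the siRNA libraries. CARS1 (cysteine) was the lowest cytosolic enzyme in all 4 libraries, with 12.3 and 13.5 FPKM in the library labelled JFK and vector and 10.9 and 11.1 RPKM in ING5 siRNA and control siRNA. Among mitochondrial enzymes CARS2 (cysteine) was highest in the plasmid libraries, with 54.4 FPKM in the library labelled JFK against 50.8 FPKM in vector, and IARS2 (isoleucine) in the siRNA libraries, with 58.5 RPKM in ING5 siRNA and 61.5 RPKM in control siRNA. MARS2 (methionine) and PARS2 (proline) were at the low end throughout.

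The enzymes could be set side by side for 16 amino acids that have a gene for each compartment in the set, with EPRS1, which carries both activities, used for glutamate and proline. The cytosolic transcript was the higher one per length for 15 of the 16 in each library. The median ratio of cytosolic over mitochondrial level was 4.24 in the library labelled JFK against 4.38 in vector, and 5.63 in ING5 siRNA and 5.34 in control siRNA. Cysteine was the exception in all 4 libraries: CARS1 over CARS2 was 0.226 in the library labelled JFK against 0.266 in vector, and 0.220 in both siRNA libraries. Some ratios hardly moved across the 4 libraries, with MARS1 over MARS2 between 10.4 and 11.9. IARS1 over IARS2 was 1.67 in both plasmid libraries, and 1.44 in ING5 siRNA against 1.45 in control siRNA. Others spanned a wide range: WARS1 over WARS2 was 34.5 in the library labelled JFK against 46.5 in vector, and 5.98 in ING5 siRNA and 7.81 in control siRNA. TARS1 over TARS2 was 5.13 in the library labelled JFK against 5.46 in vector, and 22.6 in ING5 siRNA and 19.1 in control siRNA. The ratio was thus lower for tryptophan and higher for threonine in the siRNA tables than in the plasmid tables. Several other amino acids had low ratios in the plasmid pair, all with intervals above 1: LARS1 over LARS2 was 1.37 in the library labelled JFK against 1.62 in vector, YARS1 over YARS2 1.66 in each and NARS1 over NARS2 1.65 against 1.90.

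**Figure D2:**
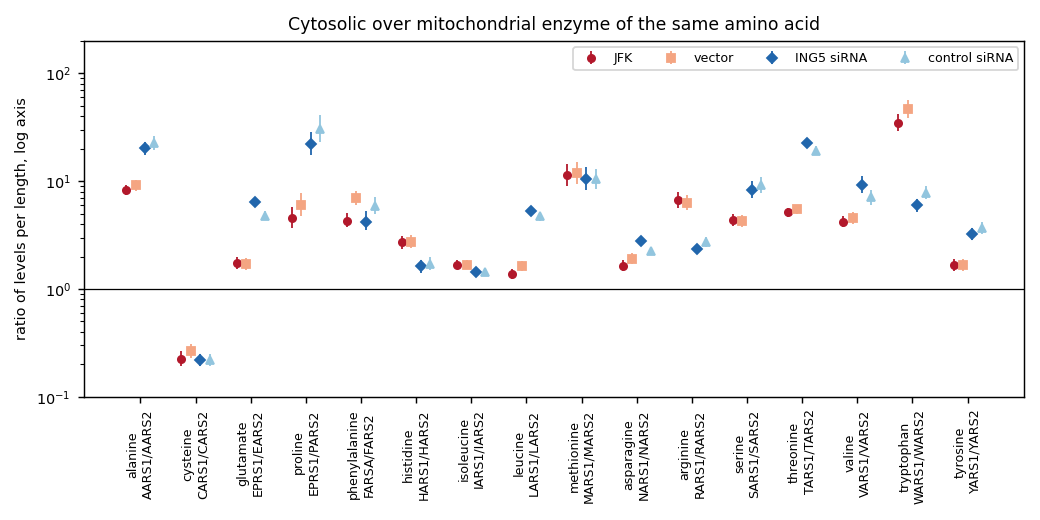
Ratio of the per-length level of the cytosolic enzyme to that of the mitochondrial enzyme (log axis) for 16 amino acids in each library; bars are 95% counting intervals and the line marks equal levels. Cysteine alone lies under the line, in all 4 libraries, and tryptophan spans 5.98 in ING5 siRNA to 46.5 in vector.

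Between the library labelled JFK and vector, differences within the set were small. The median log2 fold was -0.07 for the 19 cytosolic enzymes, 0.07 for the 16 mitochondrial enzymes and -0.06 for the 3 scaffold genes, beside 0.00 for all 12107 measured genes. The median size of the difference, sign left aside, was 0.0960 on the log2 scale for the members and 0.147 for all measured genes. A single member, FARSA, was at least 1.5-fold lower and none was 1.5-fold higher, beside 2.07% and 1.5% of all measured genes. The counting interval lay wholly below 0 for 8 of the 38 members, beside 11.2% of all measured genes, and wholly above 0 for 3, beside 14.3%. The median mean count was 684 for the members and 263 for all measured genes, and a higher count narrows the interval, so these shares are not on an equal footing.

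The signs of cytosolic and mitochondrial enzymes were split differently in the vector pair, but most of their intervals held 0. Of the 19 cytosolic enzymes 12 lay below 0 and 7 above, while of the 16 mitochondrial enzymes 5 lay below 0 and 11 above. Of all measured genes 5992 lay below 0 and 6115 above. The interval held 0 for 11 of the cytosolic and 14 of the mitochondrial enzymes, so the split is not read as a class difference. Scaling by the total count alone gave 14 below and 5 above for cytosolic enzymes and 7 below and 9 above for mitochondrial ones, and the deposited FPKM split the mitochondrial enzymes 8 and 8. The median of all measured genes was -0.03 with the total count and -0.04 with FPKM, where the mitochondrial median was 0.03 and 0.02. The total count moved genes by nearly the same amount, and FPKM moved most members by a similar amount, with exceptions. With FPKM, AARS1 went from 0.10 to 0.06 and GARS1 from -0.02 to -0.06. The exceptions include FARSA, from -0.64 to -0.70, and EEF1E1, from -0.06 to -0.07. The intervals of cytosolic FARSA, FARSB, WARS1, NARS1, IARS1 and TARS1, of mitochondrial IARS2 and of the scaffold gene AIMP1 lay below 0. Those of cytosolic YARS1 and AARS1 and of mitochondrial AARS2 lay above 0, and with total-count scaling YARS1 alone of these 3 was left.

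FARSA had 932 counts in the library labelled JFK against 1476 in vector, or 68.5 FPKM against 111 FPKM (log2 fold -0.64, interval -0.76 to -0.52). FARSB, which encodes the other subunit of the same tetrameric enzyme, had 417 counts in the library labelled JFK against 509 in vector (-0.26, interval -0.45 to -0.07). Both subunit transcripts of the phenylalanine enzyme were thus lower in the library labelled JFK, FARSA by the wider margin. WARS1 had 4375 counts in the library labelled JFK against 5498 in vector (-0.31, interval -0.36 to -0.25). NARS1, the asparagine enzyme, had 818 counts in the library labelled JFK against 969 in vector (-0.22, interval -0.36 to -0.08). The isoleucine enzymes of both compartments lay equally low: IARS1 had 1326 counts in the library labelled JFK against 1533 in vector, and IARS2 614 against 707, each with a log2 fold of -0.18. TARS1 had 3152 counts in the library labelled JFK against 3403 in vector (-0.09, interval -0.16 to -0.02).

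On the other side, YARS1, the tyrosine enzyme, had 827 counts in the library labelled JFK against 742 in vector (0.18, interval 0.04 to 0.33). AARS1, the alanine enzyme, had 2377 counts in the library labelled JFK against 2252 in vector (0.10, interval 0.02 to 0.19), and its mitochondrial counterpart AARS2 411 against 353 (0.24, interval 0.04 to 0.45). With total-count scaling the intervals of both alanine enzymes held 0. PARS2 had the highest log2 fold of the set, 0.34, but with 87 counts in the library labelled JFK against 70 in vector its interval ran from -0.13 to 0.81. The remaining cytosolic enzymes kept close to 0: KARS1 (1786 counts in the library labelled JFK against 1809 in vector), GARS1 (963 against 993), HARS1 (histidine, 729 against 746) and MARS1 (methionine, 920 against 919) all lay between -0.02 and 0.03. EPRS1 stood at -0.07, LARS1 (leucine) at -0.09, RARS1 (arginine) at -0.07, CARS1 at -0.08, SARS1 (serine) at 0.06, VARS1 (valine) at 0.09 and QARS1 (glutamine) at 0.10, each with an interval that held 0.

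The other mitochondrial enzymes had intervals that held 0 in the vector pair. VARS2 and YARS2 lay farthest from 0 among these, after PARS2. VARS2 had 319 counts in the library labelled JFK against 284 in vector (0.19), YARS2 (tyrosine) 345 against 310 (0.18), LARS2 (leucine) 543 against 499 (0.15) and CARS2 737 against 678 (0.14). WARS2 stood at 0.12 and MARS2 at 0.09, that gene with 86 counts in the library labelled JFK against 82 in vector. RARS2 (arginine) lay on the other side, with 164 counts in the library labelled JFK against 186 in vector (-0.16), and EARS2 with 376 against 408 (-0.09). FARS2, the single-chain mitochondrial phenylalanine enzyme, had 214 counts in the library labelled JFK against 212 in vector (0.04), with an interval of -0.24 to 0.32 that lies above that of FARSA. HARS2, NARS2, SARS2 and TARS2 lay between -0.01 and 0.03.

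Among scaffold genes, AIMP1 had 298 counts in the library labelled JFK against 380 in vector (-0.33, interval -0.55 to -0.10). AIMP2, the central scaffold that the other subunits dock on, had 751 counts in the library labelled JFK against 696 in vector (0.13, interval -0.02 to 0.28), and EEF1E1 328 against 348 (-0.06). For AIMP2 and EEF1E1 the deposited expected count and FPKM differed by more than 1%, and without them AIMP1 alone is left of the scaffold. AIMP2 also shares exon bases with EIF2AK1 and EEF1E1 with a read-through gene, in an annotation used here for names only.

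**Figure D3:**
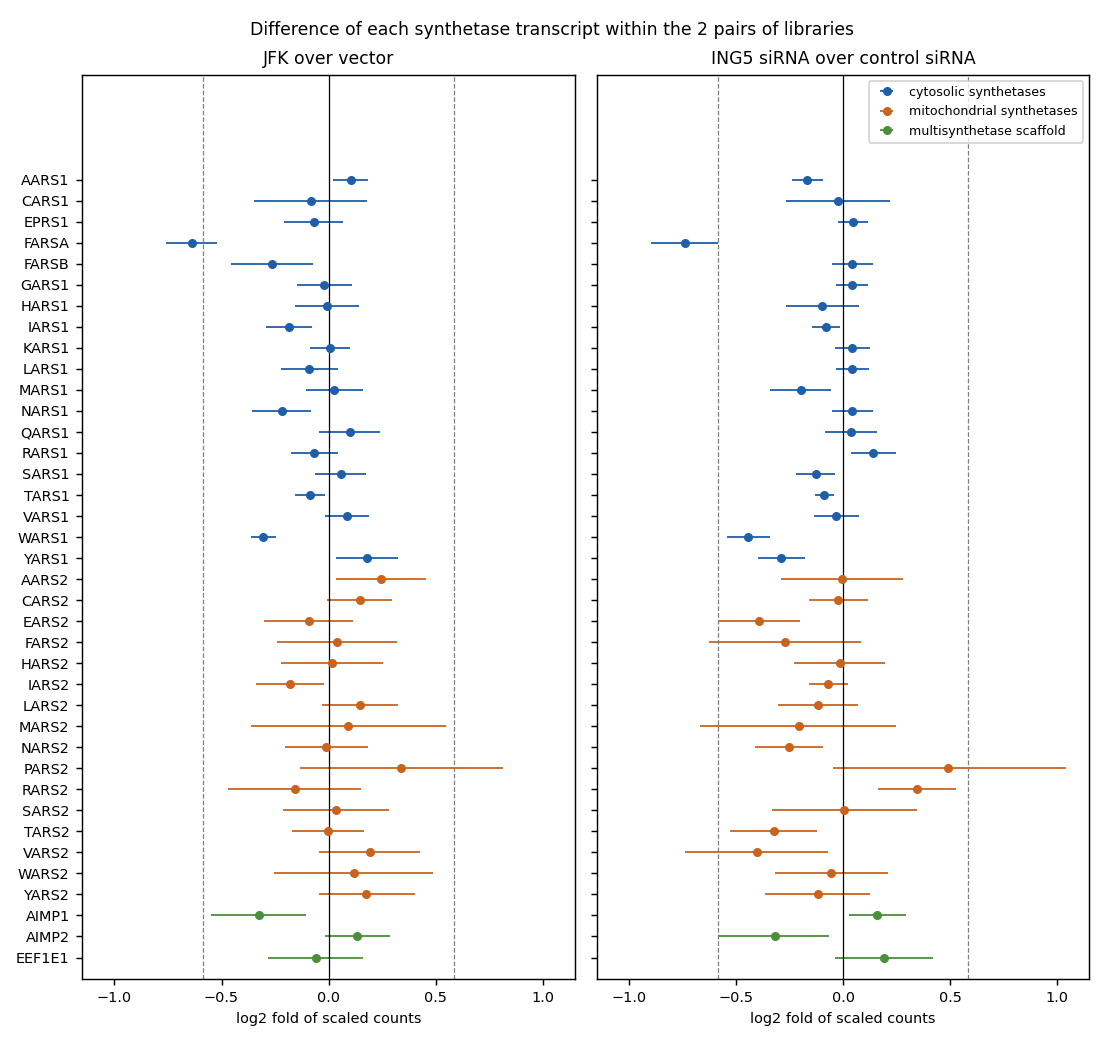
Log2 fold of TMM-scaled counts with 95% counting intervals for the 38 members, JFK over vector on the left and ING5 siRNA over control siRNA on the right; dashed lines mark 1.5-fold. FARSA lies beyond the dashed line at -0.64 and -0.74, and no other member does.

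Under ING5 siRNA more members lay below 0 than above, 25 against 13, beside 5980 and 5654 of all measured genes. The median log2 fold was -0.03 for the 19 cytosolic enzymes, -0.09 for the 16 mitochondrial enzymes and 0.16 for the 3 scaffold genes, beside -0.01 for all 11634 measured genes. The median size of the difference, sign left aside, was 0.117 on the log2 scale for the members and 0.183 for all measured genes. FARSA was again the single member at least 1.5-fold lower and none was 1.5-fold higher, beside 4.4% and 4.01% of all measured genes. The interval lay wholly below 0 for 13 of the 38 members, beside 20.6% of all measured genes, and wholly above 0 for 3, beside 18.3%. The median mean count was 766 for the members and 321 for all measured genes, so these shares too are not on an equal footing. Of the 16 mitochondrial enzymes 13 lay below 0 and 3 above, and of the 19 cytosolic enzymes 11 lay below and 8 above. By interval, 8 cytosolic enzymes lay below 0 and 1 above, and 4 mitochondrial enzymes below and 1 above.

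FARSA had 528 counts in ING5 siRNA against 892 in control siRNA, or 30.6 RPKM against 52.3 RPKM (log2 fold -0.74, interval -0.90 to -0.58). Its listed count in ING5 siRNA was 2.22% above the 517 counts that its RPKM implies, a gap seen in no other member of the siRNA tables. FARSB had 1806 counts in ING5 siRNA against 1773 in control siRNA (0.04, interval -0.05 to 0.14), so the interval of FARSA alone of the 2 subunits lay below 0. WARS1 was second among cytosolic enzymes, with 1429 counts in ING5 siRNA against 1963 in control siRNA (-0.44, interval -0.54 to -0.34). YARS1 had 1239 counts in ING5 siRNA against 1531 in control siRNA (-0.29, interval -0.40 to -0.18). Smaller differences of the same sign, with intervals below 0, were those of MARS1 (763 counts in ING5 siRNA against 885 in control siRNA, -0.20), AARS1 (2850 against 3235, -0.17), SARS1 (1878 against 2074, -0.13), TARS1 (8770 against 9419, -0.09) and IARS1 (3624 against 3870, -0.08). RARS1 was the cytosolic enzyme with an interval above 0, at 1525 counts in ING5 siRNA against 1399 in control siRNA (0.14, interval 0.03 to 0.25).

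Several enzymes of the multisynthetase complex lay close to 0 under ING5 siRNA. EPRS1 had 3279 counts in ING5 siRNA against 3213 in control siRNA, LARS1 2793 against 2740, KARS1 2388 against 2344 and QARS1 1107 against 1091, all with log2 folds of 0.04 or 0.05. Outside the complex, GARS1 (2926 counts in ING5 siRNA against 2872 in control siRNA) and NARS1 (1860 against 1825) also stood at 0.04, CARS1 at -0.02, VARS1 at -0.03 and HARS1 at -0.10, each with an interval that held 0. For the 7 enzymes of the set that sit in the complex (EPRS1, IARS1, KARS1, LARS1, MARS1, QARS1 and RARS1) the median log2 fold was 0.04 in this pair, against -0.07 between the library labelled JFK and vector. For the cytosolic enzymes outside it the medians were -0.09 here and -0.05 there.

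Of the 16 mitochondrial enzymes 4 had intervals below 0, a share near the 20.6% of all measured genes. EARS2, which charges glutamate, had 402 counts in ING5 siRNA against 533 in control siRNA (-0.39, interval -0.58 to -0.20). TARS2 (threonine) had 364 counts in ING5 siRNA against 461 in control siRNA (-0.32, interval -0.53 to -0.12). VARS2 (valine) had 133 counts in ING5 siRNA against 178 in control siRNA (-0.40, interval -0.74 to -0.07), and NARS2 (asparagine) 589 against 709 (-0.25, interval -0.41 to -0.09). Their cytosolic partners EPRS1, TARS1, VARS1 and NARS1 lay between -0.09 and 0.05. Since these 4 were picked by their own intervals, partners nearer 0 can follow from that choice alone. The contrast is therefore not read as a difference between compartments. RARS2 lay above 0, with 554 counts in ING5 siRNA against 441 in control siRNA (0.34, interval 0.16 to 0.53). PARS2 had the highest log2 fold, 0.49, on 71 counts in ING5 siRNA against 51 in control siRNA, and its interval of -0.05 to 1.04 held 0. FARS2 had 123 counts in ING5 siRNA against 150 in control siRNA (-0.27), with an interval of -0.63 to 0.08, and MARS2 77 against 90 (-0.21). LARS2 (457 counts in ING5 siRNA against 501 in control siRNA) and YARS2 (267 against 293) both stood at -0.12. The remaining mitochondrial enzymes kept within 0.07 of 0: IARS2 stood at -0.07, WARS2 at -0.06, CARS2 and HARS2 at -0.02, AARS2 at -0.01 and SARS2 at 0.01. The scaffold genes divided, with AIMP1 at 978 counts in ING5 siRNA against 886 in control siRNA (0.16, interval 0.03 to 0.29) and AIMP2 at 228 against 288 (-0.32, interval -0.58 to -0.07). EEF1E1 had 334 counts in ING5 siRNA against 296 in control siRNA (0.19), and its interval of -0.04 to 0.42 held 0.

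Set side by side, the pairs have no library in common, so their values are separate measurements. The interval lay below 0 in both pairs for 4 members, FARSA, WARS1, IARS1 and TARS1, beside 3.94% of the 11148 genes measured in both, and above 0 in both for none, beside 2.84%. At 1.5-fold lower in both stood FARSA alone, beside 0.206% of those genes. The median mean count was higher for members than for all measured genes in each pair, so shares by interval are not on an equal footing. In both pairs 10 members lay below 0 and 4 above, while 15 lay above 0 in the library labelled JFK and below 0 in ING5 siRNA, 9 of them mitochondrial. The share of all genes in each such group was not computed, so these counts are not read as a pattern. Of all measured genes, 6115 lay above 0 and 5992 below in the vector pair, and 5654 and 5980 in the siRNA pair. Across the 38 genes the log2 folds of the pairs had a Pearson correlation of 0.24 and a Spearman correlation of -0.16, and without FARSA the Pearson correlation was -0.05. Over all 11148 genes the Pearson correlation was 0.06. These correlations are across genes, which are not independent replicates.

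**Figure D4:**
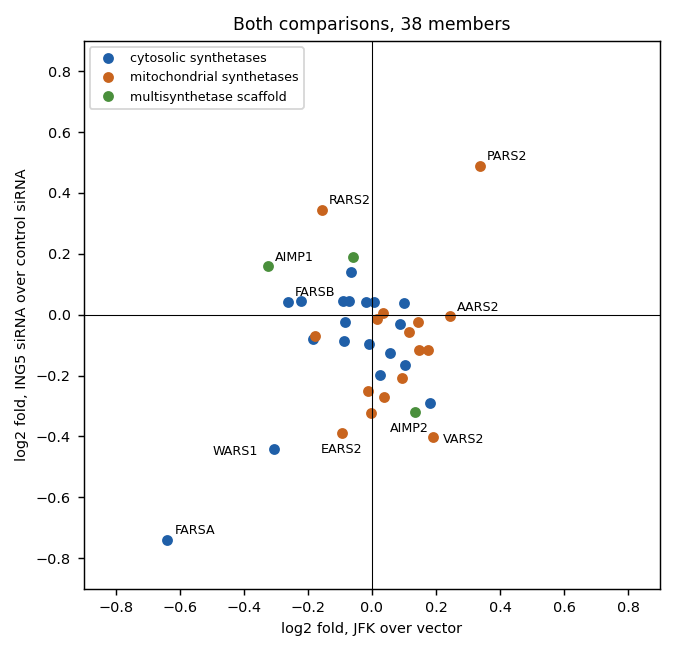
Log2 fold of each member in the library labelled JFK over vector (x axis) and in ING5 siRNA over control siRNA (y axis); each point is 1 gene, coloured by class. FARSA and WARS1 lie apart at the lower left, PARS2 at the upper right, and the other points scatter around 0 with no common slope.

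The subunits of the phenylalanine enzyme also differed in their balance. FARSA over FARSB per length was 2.67 in the library labelled JFK (interval 2.40 to 3.03) against 3.51 in vector (3.16 to 3.87). It was 0.345 in ING5 siRNA (0.319 to 0.388) against 0.606 in control siRNA (0.559 to 0.657). The ratio was lower in each treated library, and FARSA was the more abundant transcript in the plasmid pair and FARSB in the siRNA pair. FARSB levels were 25.6 FPKM in the library labelled JFK against 31.7 FPKM in vector, and 88.8 RPKM in ING5 siRNA and 86.3 RPKM in control siRNA.

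**Figure D5:**
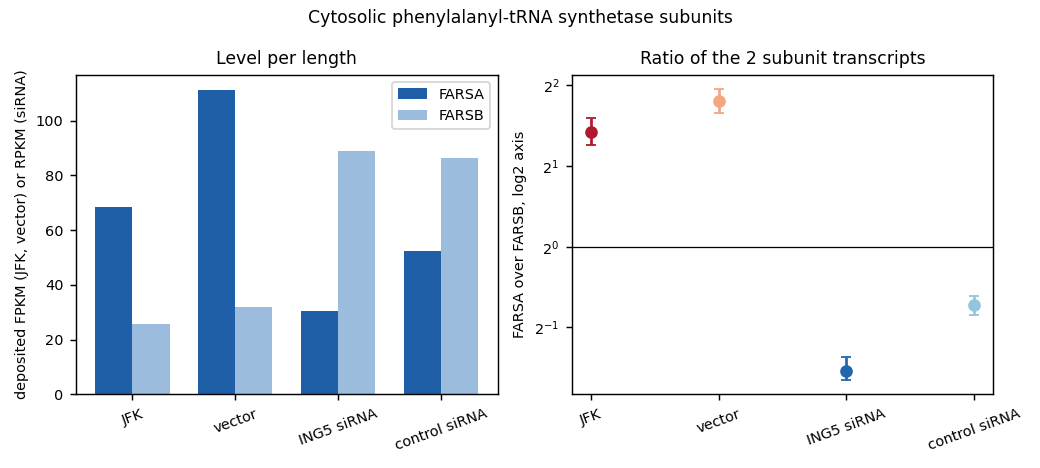
Left, deposited per-length level of FARSA and FARSB in each library (FPKM or RPKM, 1 library per bar); right, their ratio on a log2 axis with 95% counting intervals. The ratio is 2.67 for JFK, against 3.51 in vector, and 0.345 in ING5 siRNA and 0.606 in control siRNA.

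The pairs of tables differed more from each other than the libraries within a pair did. Taking the mean RPKM of the siRNA pair over the mean FPKM of the plasmid pair, 8 of the 38 members exceeded 2-fold upwards and 6 downwards, beside 12.5% and 20.5% of the 11148 genes. FARSB (3.05), EPRS1 (3.03), LARS1 (2.45) and GARS1 (2.35) had the highest ratios, and WARS1 (0.262), AIMP2 (0.278) and VARS2 (0.410) the lowest. These ratios cross tables that were normalised separately, with gene lengths that differ for some members, and the part of the tables in them was not tested.

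Other genes of charging and its regulation were read from lists. ATF4 had 1921 counts in ING5 siRNA against 2662 in control siRNA (-0.45, interval -0.54 to -0.37) and lay at -0.02 in the library labelled JFK. Of its known targets, the serine synthesis gene PSAT1 stood at -1.41 under ING5 siRNA, the leucine transporter gene SLC7A5 at -0.63 and its partner SLC3A2 at -0.52, while STC2 and VLDLR stood at 0.69. Of 19 listed genes of the ATF4 response measured in that pair, intervals lay below 0 for 5 and above 0 for 5, near the 20.6% and 18.3% of all measured genes, with a median of 0.00. In the vector pair 20 were measured, with intervals of 5 below and 4 above, beside 11.2% and 14.3%, and ASNS, the asparagine synthesis gene, was the lowest at -0.51. The 7 cytosolic enzymes whose promoter holds TGATGNAA had median log2 folds of -0.08 in each pair, and the 9 without it -0.07 for the library labelled JFK and 0.04 for ING5 siRNA.

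Most listed interferon gamma targets lay opposite to WARS1 in the siRNA pair. Of 7 listed genes measured there, 5 had intervals above 0 and none below, beside 18.3% and 20.6% of all measured genes, with a median of 0.23. Among those 5, the lower bounds of TAP1 (0.003) and PSME2 (0.006) lay so close to 0 that their place depends on the scaling. IRF1 (-0.12) and PSMB9 (-0.07) lay below 0 like WARS1, with intervals that held 0. GBP2, a guanylate-binding protein gene, had 311 counts in ING5 siRNA against 192 in control siRNA (0.71, interval 0.45 to 0.98), and NLRC5, a regulator of antigen presentation genes, 364 against 278 (0.40, interval 0.18 to 0.64). In the vector pair 9 were measured, with a median of -0.15. Of these, 8 lay below 0, as WARS1 did at -0.31, and 1 above, beside 5992 and 6115 of all measured genes. The intervals of all 9 held 0.

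Genes that act on the charged or maturing transfer RNA had mixed directions. Of 13 delivery and amidation genes, 4 had intervals above 0 and 2 below in the vector pair, beside 14.3% and 11.2% of all measured genes, and 4 and 1 in the siRNA pair, beside 18.3% and 20.6%. EEF2, the translocation factor, had log2 folds of 0.22 for the library labelled JFK and 0.23 for ING5 siRNA. QRSL1 and GATB, subunits of the mitochondrial amidotransferase that finishes the glutamine transfer RNA charged by EARS2, had log2 folds of -0.24 and 0.07 for the library labelled JFK, and -0.08 and -0.27 for ING5 siRNA. Of 26 transfer RNA maturation genes measured in the vector pair, 4 had intervals above 0 and 2 below. In the siRNA pair 25 were measured, with 3 intervals above 0 and 8 below, and 3 genes were at least 1.5-fold lower, beside 4.4% of all measured genes, among them TRMT61A at -0.93. TRMT1, a transfer RNA guanine methyltransferase, had 441 counts in the library labelled JFK against 656 in vector (-0.55), and 285 in ING5 siRNA against 435 in control siRNA (-0.59). Of 17 genes of RNA polymerase III and its factors, 4 had intervals above 0 and 4 below in the vector pair, and 2 above and 6 below in the siRNA pair, read against the same shares of all measured genes. POLR3G had log2 folds of -0.97 for the library labelled JFK and 0.59 for ING5 siRNA.

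Reads near members could be shared between genes. In GENCODE 29, 17 of the 38 members share exon bases with another gene and 11 with a protein-coding one. The longest overlap was that of SARS2, with 1492 bases shared with AC011455.2 on the same strand. EEF1E1 shares 393 with its read-through gene, also on the same strand, where strand would not separate the reads. On opposite strands, HARS1 and HARS2 share 402 bases with each other, AIMP1 383 with TBCK and EARS2 370 with UBFD1. WARS1 shares 272 with WDR25, MARS1 62 with DDIT3 and FARSA 6 with FARSA-AS1. The sources used here do not say whether counting used the strand, so values of such genes carry this uncertainty.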

How the data were processed

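Gene tables of 4 libraries were used, 1 per group. Deposited expected counts and FPKM were read from the plasmid-pair tables, and deposited counts and RPKM from the siRNA tables, per the file headers. FastQC, fastp, STAR and DESeq2 and the builds GRCh37 and hg19 are named in the submitters' processing notes; the sources used here give neither their versions and roles nor the counter. Genes listed more than once in the siRNA tables were left out. Entrez identifiers were matched to symbols through RefSeq, and 110 and 89 identifiers of the vector and siRNA pairs did not match. Within a pair, counts were scaled with TMM (trims 0.3 and 0.05), 0.5 was added and the log2 ratio taken; expected counts were rounded for intervals. Measured genes had a mean scaled count of at least 20. Python 3.11.15, numpy 2.4.6, pandas 2.3.3, scipy 1.17.1 and matplotlib 3.10.9 were used, and the method was checked on simulated counts. All members are accounted for; of other lists, named genes come from the 3 highest and 3 lowest per pair, and ATF4 and the marker genes were named in addition, after their values were seen. Members, lists and motifs were chosen with earlier results of these data known. Some genes of the other lists are not reported here.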

Additional observations from a re-analysis of the deposited data

How the results depend on the processing

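With 1 library per group no replicate could be left out. No paired analysis was possible because the groups hold 1 library each and the labels give no replicate numbers. All 525 values of single members under the alternatives (median-of-ratios or total-count scaling, no filter or a minimum of 100, 5 added in place of 0.5, FPKM or RPKM in place of counts, genes whose count and per-length value disagree left out) lay within their own counting interval. For no filter (76 values), the minimum of 100 (72) and genes left out (73), this was fixed in advance. Those settings only choose genes and cannot move a member's value. FARSA ranged from -0.70 to -0.64 in the library labelled JFK and from -0.77 to -0.73 in ING5 siRNA. With total-count scaling, 1 member in place of 3 had an interval above 0 in the library labelled JFK. Without genes whose count and per-length value disagree, the scaffold median there was -0.33, from AIMP1 alone, and 0 members in place of 1 were 1.5-fold lower in ING5 siRNA, because FARSA itself is left out. By means in place of medians, cytosolic over mitochondrial level was 3.66 in the library labelled JFK, 4.11 in vector, 4.47 in ING5 siRNA and 4.48 in control siRNA; ING5 siRNA stood above control siRNA by medians and not by means. Depth limits PARS2 and MARS2 most.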
